A study of Homo sapiens with 6 samples.

Results

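Class I antigen presentation was examined through 8 genes: the heavy chains HLA-B, HLA-C, HLA-E, HLA-F and HLA-G, the light chain B2M, the peptide transporter subunit TAP1 and the immunoproteasome subunit PSMB9. They were taken by name out of 19974 protein-coding genes, and were selected on earlier readings of these same lists, in which island calls at some of them differed between conditions, and every island overlapping a gene span or the 10 kb on either side was collected. An island is a stretch that the authors' caller found enriched for a histone mark. Chromatin immunoprecipitation followed by sequencing had been made for H3K4me3, found at promoters that are active or poised, and for H3K27me3, the mark laid down by Polycomb repressive complex 2. The material was GATA2+ endothelial cells derived from H1, an established human embryonic stem cell line, in a condition labelled Vc- and a condition labelled Vc+, where the series title gives vitamin C. Of 6 samples, 3 per condition, the 4 mark libraries are used here and the 2 inputs are not. All groups share the H1 genotype and the GATA2+ label, and 1 cell line stands behind every value.

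With a single library for each combination of mark and condition, no difference below has a replicate check or a test, and each is a difference between 2 lists. Libraries are named by their labels throughout, as the Vc- and the Vc+ library. File names of all 4 lists carry the condition opposite to the sample labels. Directions below follow the labels and would turn if the names were right. The series design text speaks of GATA2/eGFP+ and GATA2/eGFP- cells, whereas the labels name GATA2+ cells alone. The labelled cell type was checked on markers: H3K4me3 was called at the start of 13 of 14 endothelial genes in both libraries, with VWF called in the Vc+ library alone, where 68.2% of all protein-coding genes were called in both. H3K27me3 was called at 4 of these 14 in both libraries (12.8% of all genes) and at CDH5, SOX18 and VWF in the Vc+ library alone (2.62%), with scores of 13.7, 27.4 and 31.7. Some genes of this check, among them CDH5, SOX18, VWF and LIN28A, have no strand in the tables used, so an island at either span end counted. The nearest H3K27me3 islands of the Vc- library lay 18.4, 33.6 and 1.08 kb from the spans of CDH5, SOX18 and VWF. An H3K4me3 island of the Vc- library overlapped the VWF span away from its ends. Blood cell markers had 2 of 8 called for H3K4me3 in both, and LAPTM5 and FCER1G in the Vc+ library alone (1.26% of all genes). H3K4me3 was called in both at 4 of 6 mesenchymal genes and at 6 of 6 genes that every cell uses. Of 5 pluripotency genes found in the gene table it was called in both at LIN28A and SOX2 and in neither library at POU5F1, NANOG and DPPA4. H3K27me3 was called in both at SOX2, with a score of 1000 in each library, and in neither at the other 4.

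Class I molecules show peptides from inside the cell to CD8 T cells and natural killer cells. Peptides are cut by the proteasome, of which PSMB9 is an inducible catalytic subunit, carried into the endoplasmic reticulum by the transporter of which TAP1 is a subunit, and loaded on a heavy chain that is paired with B2M. HLA-B and HLA-C are classical, highly polymorphic heavy chains. HLA-E presents leader peptides to natural killer cell receptors, HLA-G is best known from the trophoblast, and HLA-F is a further non-classical heavy chain. Promoters of the classical heavy chains are known for an NF-kappa-B site called enhancer A and an interferon-stimulated response element. They also hold a module bound by RFX factors with NLRC5. Embryonic stem cells carry little class I on the surface, and differentiation and interferon raise it.

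The promoter sequences are shown because the calls differ between genes whose promoters are close to each other in sequence, and because a short read is placed by sequence. RefSeq entries on GRCh38.p14 were found for 7 of the 8 genes, with none used for HLA-E. The window of PSMB9 was read with the others but is not printed. Each line gives the 250 bases before the gene start, 5′ to 3′ in the direction of transcription. Capitals mark matches on either strand to 3 motifs: a form of the NF-kappa-B site (GGGGA, any base, T, any base, CCC), and a close-spaced form (GAANNGAAA) and a wide-spaced form (GAAA, any 2 bases, GAAA) of the interferon-stimulated response element.
HLA-B, chr6:31357180-31357429, minus strand: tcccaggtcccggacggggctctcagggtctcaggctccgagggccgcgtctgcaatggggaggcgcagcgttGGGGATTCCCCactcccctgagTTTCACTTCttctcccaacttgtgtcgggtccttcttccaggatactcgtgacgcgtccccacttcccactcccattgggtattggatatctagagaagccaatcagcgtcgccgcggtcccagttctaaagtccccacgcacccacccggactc
HLA-C, chr6:31272093-31272342, minus strand: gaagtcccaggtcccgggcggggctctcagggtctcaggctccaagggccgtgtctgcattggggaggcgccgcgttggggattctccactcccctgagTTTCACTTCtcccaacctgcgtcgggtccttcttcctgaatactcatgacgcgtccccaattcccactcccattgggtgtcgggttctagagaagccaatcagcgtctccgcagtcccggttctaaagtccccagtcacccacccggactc
HLA-G, chr6:29827575-29827824, plus strand: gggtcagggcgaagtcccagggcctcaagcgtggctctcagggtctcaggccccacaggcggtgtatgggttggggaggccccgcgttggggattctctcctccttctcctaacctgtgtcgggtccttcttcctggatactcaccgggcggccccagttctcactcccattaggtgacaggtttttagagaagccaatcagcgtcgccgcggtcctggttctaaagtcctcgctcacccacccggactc
HLA-F, chr6:29723184-29723433, plus strand: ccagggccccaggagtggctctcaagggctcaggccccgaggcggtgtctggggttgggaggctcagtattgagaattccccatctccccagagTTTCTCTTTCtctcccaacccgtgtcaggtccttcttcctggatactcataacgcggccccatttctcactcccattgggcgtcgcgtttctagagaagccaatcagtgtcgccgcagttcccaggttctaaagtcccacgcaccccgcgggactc
TAP1, chr6:32853705-32853954, minus strand: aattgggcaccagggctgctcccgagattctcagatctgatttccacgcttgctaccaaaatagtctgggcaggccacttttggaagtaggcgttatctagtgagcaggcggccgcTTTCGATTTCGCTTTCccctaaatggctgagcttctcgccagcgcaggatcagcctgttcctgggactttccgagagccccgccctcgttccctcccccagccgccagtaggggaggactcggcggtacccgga
B2M, chr15:44711267-44711516, plus strand: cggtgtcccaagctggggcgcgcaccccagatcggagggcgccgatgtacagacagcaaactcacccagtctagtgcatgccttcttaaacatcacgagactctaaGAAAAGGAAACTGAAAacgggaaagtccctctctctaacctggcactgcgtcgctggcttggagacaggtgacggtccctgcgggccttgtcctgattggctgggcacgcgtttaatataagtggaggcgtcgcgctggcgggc

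Over these windows HLA-B and HLA-C were 89.0% identical in a global alignment, HLA-B and HLA-F 79.8%, and HLA-B and HLA-G 72.5%. HLA-B against TAP1 gave 44.8% and against B2M 47.3%, which shows what unrelated windows reach with this alignment. HLA-G has 3 starts in the RefSeq table, and the one printed, at 29827825, is the most similar to HLA-B. The NF-kappa-B form was found in HLA-B alone among the 7 windows, as GGGGATTCCCC at positions -177 to -167 counted back from the gene start, and in 0.325% of 22132 such windows at protein-coding gene starts. GAANNGAAA was found in HLA-B and HLA-C, and in 5.68% of all windows. The wide-spaced form, added after the sequences had been seen, was found in HLA-F once and in TAP1 and B2M as overlapping pairs, and in 2.71% of all windows. The windows of HLA-G and PSMB9 held none of these 3. ATTGG, the inverted CCAAT box, was found on either strand in all 7 windows and in 32.7% of all windows, GGGCGG, the GC box, in HLA-C, HLA-G, TAP1 and PSMB9 and in 53.7%, and TGACGTCA, the cyclic AMP response element, in none of the 7 and in 2.02%. For the NF-kappa-B site only the form given above was searched for, and its finding in HLA-B alone holds for that form. Whether the other windows hold sites of another form was not tested, and in the printed windows such sites would stand in lower case. A match is a description of letters and says nothing of binding. G+C content of the 7 windows ran from 58.4% to 67.2%, around the median of 62% over all windows, and the ratio of observed to expected CpG from 0.585 to 0.846, around a median of 0.711.

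In all, 8 islands lay within 10 kb of the members. H3K4me3 had 3 in each library, and H3K27me3 had 1 in each. Below, a call at a gene means an overlap of at least 1 bp between an island and the 1 kb on either side of the gene start. H3K4me3 was called at HLA-B and HLA-C in the Vc- library alone, against 0.851% of all protein-coding genes. It was called at HLA-E, TAP1 and PSMB9 in the Vc+ library alone, against 1.26% of all genes. B2M was called in both, as 68.2% of all genes were, and HLA-F and HLA-G in neither, as 29.6% were. H3K27me3 was called at HLA-G in the Vc- library alone (1.31% of all genes) and at HLA-B in the Vc+ library alone (2.62%). The members were chosen for such calls, so nothing is read from their number. No member had both marks in the same condition, compared with 12.3% of all genes in the Vc- pair and 13.8% in the Vc+ pair.

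**Figure D1:**
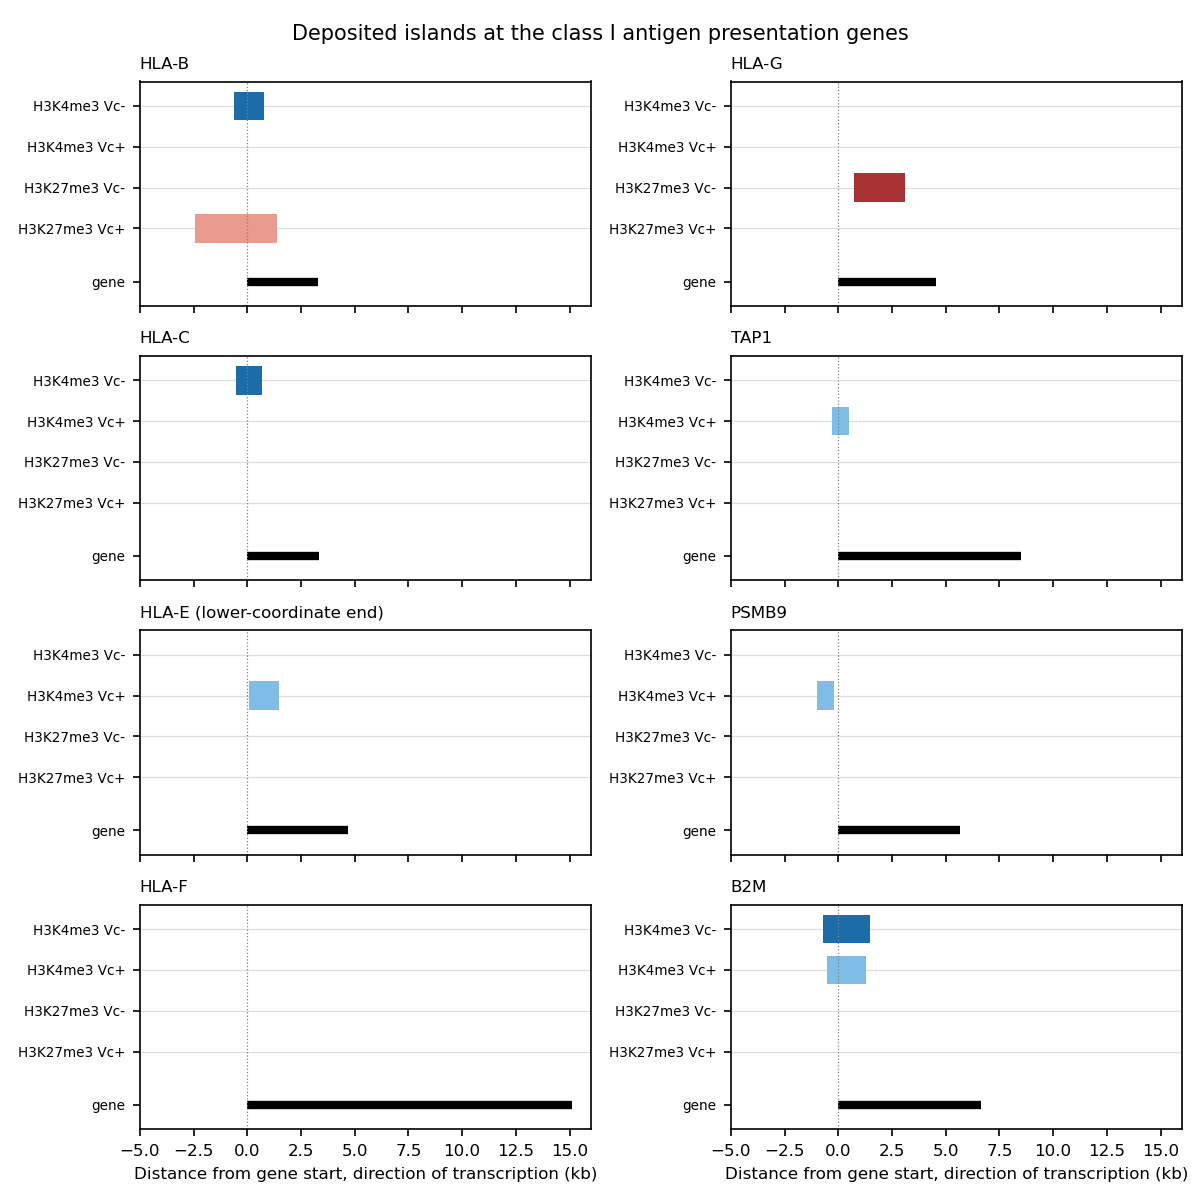
Islands of the 4 lists at the 8 members, with distance from the gene start in kb along the horizontal axis in the direction of transcription (for HLA-E, from the lower-coordinate end). Coloured bars are islands, the black bar is the gene, and B2M is the member with an H3K4me3 island in both conditions while HLA-F has none.

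HLA-B (NCBI gene 3106, chr6:31353875-31357179, minus strand) carried H3K4me3 in the Vc- library and H3K27me3 in the Vc+ library. The H3K4me3 island, in the Vc- library, spanned 1.4 kb at chr6:31356401-31357800, from 621 bp before to 778 bp after the start, with a score of 24.2. No H3K4me3 island of the other library lay closer than 42.2 kb to the gene. The H3K27me3 island, in the Vc+ library, spanned 3.8 kb at chr6:31355801-31359600, from 2421 bp before to 1378 bp after the start, with a score of 35.3. It contained the whole stretch that carried H3K4me3 in the Vc- library, and both islands covered all 250 bases printed above. The nearest H3K27me3 island of the Vc- library was 1464 kb away. These are bulk libraries, so a mark in all cells and a mark in a part of them cannot be told apart. Over all protein-coding genes, 13 (0.0651%) had H3K4me3 in the Vc- library alone together with H3K27me3 in the Vc+ library alone, HLA-B among them. MIR6891, a microRNA gene inside HLA-B, lies within 1 kb of that H3K27me3 island.

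The score is the authors', is taken here as -log10 of a false discovery rate, and ranks islands within 1 list. The H3K4me3 island at HLA-B scored above 26.8% of its list, and the H3K27me3 island above 77.4% of its own.

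HLA-C (gene 3107, chr6:31268749-31272092, minus strand) had 1 island in the 4 lists. It was an H3K4me3 island of 1.2 kb in the Vc- library, at chr6:31271401-31272600, from 508 bp before to 691 bp after the start. Its score of 15.4 was above 18.4% of its list and was the lowest among the members' H3K4me3 islands. In the Vc+ library the nearest H3K4me3 island was 109 kb from the gene. The nearest H3K27me3 island was 1379 kb away in the Vc- library and, in the Vc+ library, was the one at HLA-B, 83.7 kb away.

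Among the non-classical heavy chains, HLA-E (gene 3133, chr6:30489509-30494194) had an H3K4me3 island in the Vc+ library that spanned 1.4 kb at chr6:30489601-30491000, beginning 92 bp inside the lower-coordinate gene end. The tables used give no strand for HLA-E, so both of its ends were searched. The score was 27.6, above 29.5% of that list, and the nearest H3K4me3 island of the Vc- library was 61.2 kb away. HLA-G (gene 3135, chr6:29826474-29831021, plus strand) had an H3K27me3 island of 2.4 kb in the Vc- library at chr6:29827201-29829600. It began 727 bp after the lower end of the span and covered all 250 bases before the start at 29827825. Its score of 19.97 was above 66.3% of its list, and in the Vc+ library the nearest H3K27me3 island was 54.8 kb away, over the pseudogene HLA-H. HLA-F (gene 3134, chr6:29723434-29738532, plus strand) had no island of either mark within 10 kb, which held for 16.9% of all protein-coding genes. The nearest to HLA-F was an H3K4me3 island of 1 kb in the Vc+ library, 13.7 kb away with a score of 16.7. Closer to the 10 kb limit was a further H3K4me3 island near B2M, 10.3 kb from it in both libraries, and the islands just inside that limit all lay within 1 kb of a member.

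B2M (gene 567, chr15:44711517-44718145, plus strand), the light chain that every class I heavy chain needs, is the member that does not lie on chromosome 6. Its H3K4me3 island was 2.2 kb wide in the Vc- library (chr15:44710801-44713000) and 1.8 kb in the Vc+ library (chr15:44711001-44712800), and the narrower lay within the wider. The scores were 67.7 and 91.7, above 48.2% and 59.1% of their lists. The island also covered the higher-coordinate end of the PATL2 span, 127 bp from the B2M start. No H3K27me3 island lay within 274 kb of B2M in either library.

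TAP1 (gene 6890, chr6:32845209-32853704, minus strand) and PSMB9 (gene 5698, chr6:32854192-32859851, plus strand) point away from each other, with 488 bp between their starts, and are known to share a promoter. Both calls rest on 1 H3K4me3 island of 0.8 kb in the Vc+ library, at chr6:32853201-32854000. It covered the TAP1 start, from 296 bp before to 503 bp after it, and ended 192 bp short of the PSMB9 start. It held all of the 250 bases before TAP1 and 59 of the 250 before PSMB9. Its score of 21.4 was above 24.99% of its list. In the Vc- library the nearest H3K4me3 island was 40.9 kb from TAP1 and 34.8 kb from PSMB9. No H3K27me3 island lay within 767 kb of TAP1 or 761 kb of PSMB9 in either library.

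The scores of these islands were then set beside what happened to other islands of the same score. Of H3K4me3 islands scoring 15 to 30, the range of every H3K4me3 island at a member except those at B2M, 15.4% of 2728 in the Vc- library (exact 95% interval 14.1 to 16.8) and 11.5% of 2640 in the Vc+ library (10.3 to 12.8) had no overlapping island in the other list. Between 30 and 50 the shares were 1.99% and 1.17%, and above 100 they were 0 of 8898 and 0 of 8279 islands, with upper bounds of 0.0414% and 0.0445%. The H3K27me3 island at HLA-G fell in the range 15 to 20, where 9.15% of 590 islands of that list had no counterpart. The H3K27me3 island at HLA-B fell in the range 30 to 50, where 1.69% of 827 islands of the Vc+ library (0.929 to 2.82) had none. All intervals are Clopper-Pearson intervals and cover counting error only. These shares are of whole lists, and scores of different lists are not on 1 scale. The members were chosen because their calls differ, so nothing is read from the shares for the members.

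**Figure D2:**
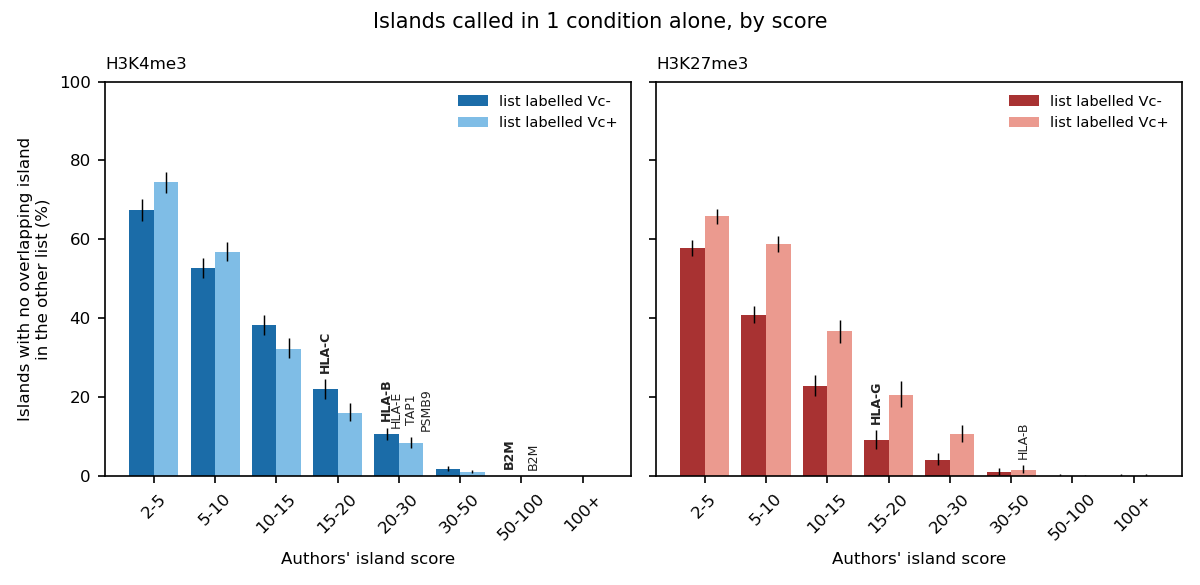
Share of islands with no overlapping island in the other list of the mark (vertical axis, %) by the authors' score (horizontal axis), for both marks and conditions, with exact 95% intervals. Member names stand over the bar of their island's score range, in bold for the Vc- library. HLA-B in H3K27me3 stands over a whole-list share of 1.69%, and members were chosen because their calls differ.

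The 7 members on chromosome 6 lie in the major histocompatibility complex, so the other genes there were read in the same way. From HLA-F to PSMB9 (chr6:29723434-32859851, a stretch chosen after the calls were seen) there are 122 protein-coding genes. H3K4me3 was called in both libraries at 38 of them (31.1%), in the Vc- library alone at 15, in the Vc+ library alone at 8 and in neither at 61. Calls in 1 condition alone thus made up 18.9% of the genes, and 15.7% of the 115 that are no members, compared with 2.01% of the 19852 protein-coding genes elsewhere. In flanks of the same length on chromosome 6 the share was 4.55% of 66 genes on the side of lower coordinates and 1.61% of 62 on the other.

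Scores were low throughout this stretch. Among genes called, the median score was 26.2 in the Vc- library and 30.1 in the Vc+ library, compared with 131 and 121 at genes elsewhere. In the flank of the same length on the side of lower coordinates the medians were 136 and 150, and in the flank on the other side 74.8 and 76.1. No island of the stretch scored 100 or more in either list (0 of 56 and 0 of 44), whereas 39.9% and 37.6% of all islands did. This held also at genes that most cells use: TUBB, which encodes a beta-tubulin, scored 70.4 and 73.3, DDX39B, an RNA helicase, 68.1 and 34.0, and BAG6, a chaperone, 18.3 at its start in the Vc- library, with no call there in the Vc+ library and an island scoring 31.9 within 10 kb of the gene. POU5F1, the pluripotency factor, also lies in the stretch and had no call at its start. Of islands scoring 15 to 30 in this stretch, 12 of 32 in the Vc- library (37.5%, exact interval 21.1 to 56.3) and 7 of 19 in the Vc+ library (36.8%, 16.3 to 61.6) had no counterpart, beside 15.4% and 11.5% of the whole lists. Those counts hold the islands at members, which were chosen because their calls differ. Without them they were 10 of 30 (33.3%, 17.3 to 52.8) and 5 of 17 (29.4%, 10.3 to 56.0). These intervals cover counting error only and treat neighbouring islands as separate observations. The stretch was also chosen after the calls were seen, so no excess over the whole lists is read from these shares.

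**Figure D3:**
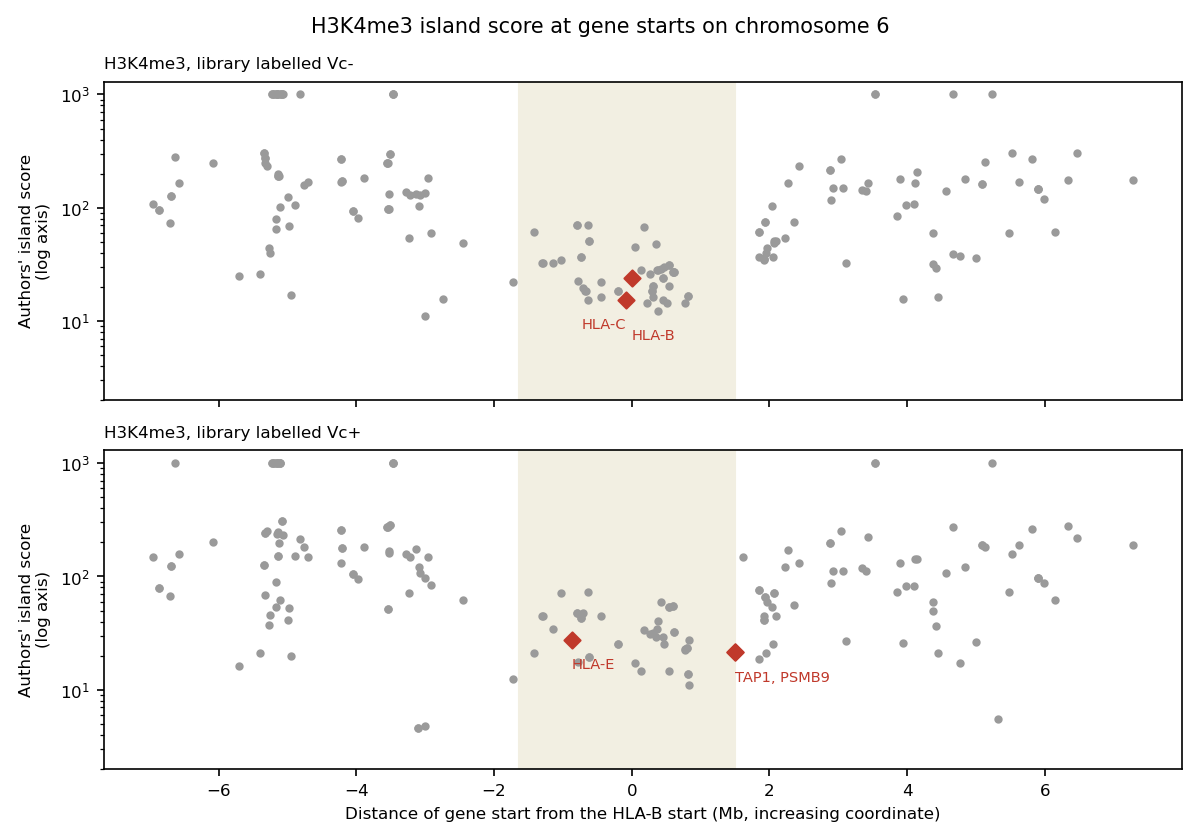
Authors' score of the best H3K4me3 island at each gene start (log axis) against distance from the HLA-B start in Mb on chromosome 6, for the Vc- and Vc+ libraries. Grey points are other protein-coding genes with a call, red diamonds are members, and within the shaded stretch from HLA-F to PSMB9 no point exceeds 73.3.

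At gene starts, the 15 genes of the stretch called in the Vc- library alone, HLA-C and HLA-B among them, lie between DHX16 and NEU1. The 8 called in the Vc+ library alone were HLA-E, before that interval, and the 7 from ATF6B to PSMB9 after it, TAP1 included. This order depended on the window. Over the gene span with 10 kb on either side, 15 and 8 genes of the stretch again had an island in the Vc- or the Vc+ library alone (0.901% and 0.946% of all protein-coding genes), but these were in part different genes. Of the 15 called in the Vc- library alone at the start, 4 kept that state (HLA-C, HLA-B, LTB and NEU1) and 11 had islands in both libraries, and of the 8 in the Vc+ library alone 6 kept it and 2 had islands in both. In that window genes with an island in the Vc- library alone also lay before DHX16 (TRIM10 and TRIM15) and after ATF6B (EGFL8, HLA-DQA1 and HLA-DQB1). Neighbouring genes share islands here, so the genes are not separate observations. MDC1, a DNA damage mediator, and CSNK2B, a casein kinase subunit, were called in the Vc- library alone at the start and in both libraries within 10 kb, whereas HLA-B and HLA-C had no H3K4me3 island of the Vc+ library in either window. PPT2, a thioesterase, was called in the Vc+ library alone in both windows, like TAP1, and PBX2, a homeobox factor, at the start alone.

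H3K27me3 was nearly absent from the stretch. Each library had 2 islands there, 1 over the class I pseudogene HLA-H in both, and 1 at HLA-G (Vc-) or HLA-B (Vc+). Of the 122 genes, 120 (98.4%) had no H3K27me3 call in either library, compared with 83.3% of all protein-coding genes. How the authors placed reads that match several HLA genes, or alternative versions of this stretch, is not given in the sources used here. The lists hold islands on chromosomes 1 to 22, X and Y and on no other sequence, and no read counts. The part of read placement in the members' calls was not tested.

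The rest of the class I pathway was read from lists that hold none of the members. Of 15 other class I pathway genes, 11 had H3K4me3 in both libraries, 1 in the Vc- library alone and 3 in neither. Over all protein-coding genes these shares were 68.2%, 0.851% and 29.6%, so nothing is read from the counts. The 11 include CALR and CANX, chaperones of the heavy chain, ERAP1, a peptide-trimming peptidase, and TAPBP, which encodes tapasin, and the 3 without a call were ERAP2 and the transporter and immunoproteasome genes TAP2 and PSMB8. TAP2 and PSMB8 neighbour TAP1, in the stretch of low scores. The difference at TAPBPL, a relative of tapasin, rests on an island scoring 13.4. It holds for the window at the start alone, as an H3K4me3 island of the Vc+ library overlapped the gene span. PSMB5, PSMB6 and PSMB7, the constitutive catalytic subunits, and PSMB10, the immunoproteasome subunit encoded outside chromosome 6, had H3K4me3 in both. No gene of these 2 lists had H3K27me3 at its start, as 83.3% of all protein-coding genes had none in either library.

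All 16 regulators of class I transcription had H3K4me3 in both libraries, as 68.2% of all protein-coding genes had. Among them were IRF1, RELA, and the RFX subunits RFX5 and RFXAP. NLRC5, the class I transactivator, was the regulator with H3K27me3, which was called in both libraries with scores of 25.7 (Vc-) and 27.4 (Vc+). Its H3K4me3 scores were 89.7 and 26.2. No strand was given for NLRC5, so both ends of its span were searched, and the marks may lie at different ends. No regulator was called in 1 condition alone for either mark, beside 2.11% of all protein-coding genes for H3K4me3 and 3.93% for H3K27me3. At such shares few calls are awaited among 16 genes, so nothing is read from their absence. The lists record where an island was called and give no level of the mark.

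**Figure D4:**
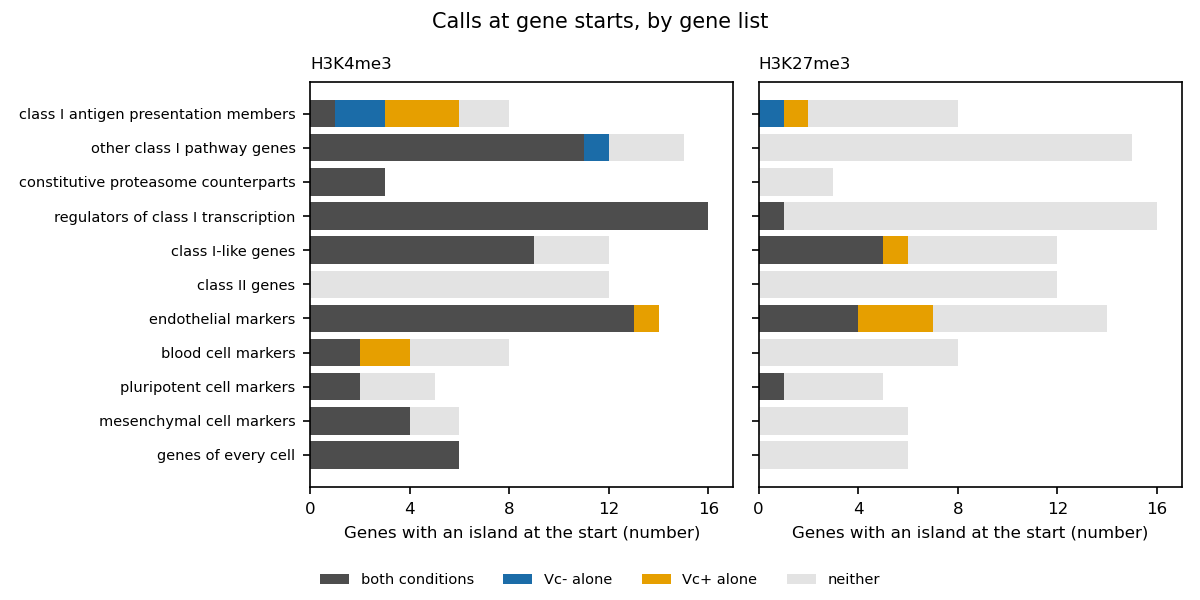
Number of genes per list with an island within 1 kb of the start, in both conditions, in 1 condition alone or in neither, for H3K4me3 and H3K27me3. The 16 regulators have H3K4me3 in both conditions, the 12 class II genes in neither, and the members are split over all 4 states. Over all protein-coding genes, H3K4me3 is called in both at 68.2% and in neither at 29.6%.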

How the data were processed

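Chromatin immunoprecipitation and sequencing for H3K4me3 and H3K27me3 gave 1 deposited island list per mark and condition. The submitters' processing notes name the aligner Bowtie2, the island caller SICER, deepTools, and both hg38 and GRCh38 as build, without versions or settings. The deposited score of each island was read from its values as -log10 of a false discovery rate (just above 2 to 309, then 1000). Scores rank islands within a list, and depth is unknown from these lists. The labels' protocol names H3K27me3 antibodies alone, and the antibody field names both marks. Samples were grouped by title. The lists held 22307 and 21991 H3K4me3 islands (Vc-, Vc+) and 8990 and 9639 H3K27me3 islands on chromosomes 1 to 22 and X, with coordinates counted from 1.

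Gene spans and promoter sequences came from RefSeq tables of GRCh38.p14. The gene start was the end of the span given by the strand, or either end for genes without one. Members, lists and named genes (at most 4 per list, by score, where calls differ) were chosen with earlier results of these data known, and genes of the chromosome 6 stretch after its values were seen. TDGF1 was not matched in the gene table. No test was made. Alternatives covered scores of at least 10 and 20, equal covered length, other windows, overlaps and starts. Calls at gene starts were the same by bedtools 2.31.1 (0 of 19974 genes different in each list) and the code was tested on simulated islands. Alignment used Biopython 1.88 under Python 3.11.15.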

Additional observations from a re-analysis of the deposited data

How the results depend on the processing

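The calls in 1 condition alone were the same members with scores of at least 10, with the longer list trimmed to the covered length of the other by score or by score per kb, with an overlap of 200 bp, windows of 2 kb, either gene end, every RefSeq start or the gene span with 10 kb, and with no island allowed within 10 kb in the other condition. Score per kb, every RefSeq start and a score of at least 20 were added after seeing the data. Exceptions came with the last: HLA-C was lost, leaving 1 member with H3K4me3 in the Vc- library alone, and HLA-G was lost, leaving 0 with H3K27me3 in that library alone. Read over the gene span without flank, PSMB9 was lost from the H3K4me3 calls in the Vc+ library alone, leaving 2. Length over the members within 10 kb was 4.8 kb (Vc-) and 4 kb (Vc+) of H3K4me3, and 2.4 kb and 3.8 kb of H3K27me3. Without flank, which by construction drops what lies before a start, it was 2.96 kb and 3.19 kb of H3K4me3 and 1.38 kb of H3K27me3 in the Vc+ library. The number of genes from HLA-F to PSMB9 called in 1 condition alone was the same over the gene span with 10 kb, also added after seeing the data, but in part for other genes. No paired analysis was possible because each mark and condition had 1 library.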

Other observations

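Calls in 1 condition alone made up 2.11% of all protein-coding genes for H3K4me3 and 3.93% for H3K27me3, so few are awaited in short lists. Of 12 class I-like genes, 9 had H3K4me3 in both libraries (68.2% of all genes) and 3 in neither (29.6%). H3K27me3 was called in both at 5 (12.8%). These 5 were the NKG2D ligand genes ULBP1, ULBP2, ULBP3, RAET1G and RAET1L on chromosome 6, outside the major histocompatibility complex, of which all but RAET1L also had H3K4me3 in both. MICA and MICB, NKG2D ligand genes beside HLA-B, had H3K4me3 in both and no H3K27me3. CD1D, which presents lipids, was called for H3K27me3 in the Vc+ library alone, with a score of 12.0. None of 12 class II genes had either mark at its start in any library, which held for 27.9% of all protein-coding genes. All of them except CD74 lie on chromosome 6 in or near the stretch of low scores. CIITA, the class II transactivator, on chromosome 16, had H3K4me3 in both.

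Of 13 class I pseudogenes named HLA-H to HLA-Z in the gene table, 3 had an island within 1 kb of the span. HLA-H was the one with both marks in both conditions: its H3K4me3 island was 0.8 kb wide in Vc- and 1.4 kb in Vc+, and its H3K27me3 island 3.6 kb in each. HLA-L had H3K4me3 in both, with scores of 22.2 and 31.9, and HLA-K in the Vc- library alone, with a score of 7.98.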
